A study of Mus musculus with 4 samples.

Results

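Prostaglandin synthesis and receptor genes were examined in mouse mammary basal epithelial cells grown with or without Wnt3A. The set holds 10 genes chosen by name: Pla2g4a, Ptgs1, Ptgs2, Ptges, Ptges2, Ptges3, Hpgd, Ptger1, Ptger2 and Ptger4. A probe set, the group of probes that reports a transcript on the array, was used where its annotation gave the symbol of that gene alone. This left 14 probe sets of 8 genes, out of 45037 probe sets and 18193 genes. Ptgs1 has no probe set under its own symbol in the annotation used here. The 2 probe sets of Ptges3 also carry the symbol of its pseudogene and were assigned to neither. The set was proposed with the difference between Wnt3A and control in view, so that difference is described for the members without a test.

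Prostaglandins are short-lived lipid signals made from arachidonic acid. Cytosolic phospholipase A2 releases the fatty acid from membranes, the cyclooxygenases convert it to prostaglandin H2, and terminal synthases turn this intermediate into prostaglandin E2 and its relatives. Prostaglandin E2 acts on the EP receptors at the cell surface and is inactivated after uptake by a cytosolic dehydrogenase. In mammary epithelium the inducible cyclooxygenase is known for its induction by growth factors and cytokines and for its high expression in many tumours.

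The colonies came from cells of virgin CD1 females 8 to 12 weeks old, sorted as Lin-/CD24+/CD29hi, a surface profile of the basal layer that is rich in mammary stem cells. They were grown in Matrigel, a basement membrane gel, for 2 passages. The Wnt3A group received 200 ng/ml purified Wnt3A, a protein that activates canonical Wnt signalling, and the control group received the vehicle, 1% CHAPS in PBS, which some labels call vesicle. Medium for both groups held 50 ng/ml EGF, itself a growth factor that acts upstream of cyclooxygenase expression, and RNA was taken from colonies at passage 2, which had grown for 6 to 7 days. With 2 arrays a group, these are named here Wnt3A 1, Wnt3A 2, Control 1 and Control 2. Whether replicate arrays stand for different animals or cultures is not said in the labels, so the errors cover only array-to-array spread, possibly technical. In such bulk RNA, fewer cells of a type and less RNA per cell cannot be told apart.

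The deposited values are log2 values from which the median of the 4 arrays had been subtracted for each probe set. They carry no level, so levels cannot be ranked between genes. A coarse level band of each median could be read from the precision of the stored numbers: 10 member probe sets lay at log2 8 to 16, and the 4 probe sets of Hpgd and Ptger1 lay at log2 4 to 8. This reading can place a dim probe set too high. All 12 basal markers measured, Krt5, Krt14 and Trp63 among them, lay in the upper band, and so did all 10 luminal markers measured. Over all probe sets 45.3% lay in that band, and a gene takes the band of its highest probe set. Of the lymphocyte and macrophage markers 4 of 8 lay there too, and of the endothelial markers 3 of 7. The band alone therefore does not show that a gene is expressed. Over the whole array limma called 0 of 45037 probe sets at an adjusted p under 0.05 (0.0%), with 2801 at an unadjusted p under 0.05 and 2252 expected by chance. Over genes it called 0 of 16922 (0.0%), with 1300 at an unadjusted p under 0.05 and 846 expected by chance. Gene values below are means of a gene's probe sets in its highest band, differences are Wnt3A minus control, and standard errors (SE) are those of limma's moderated fit.

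The promoters of the 3 members with the largest differences are shown because these genes carry the pattern described below. Each is the RefSeq window of 250 bases before to 50 after the annotated start on mouse build GRCm38.p6, written along the gene's strand. Capitals mark matches to any of 4 motifs searched on both strands: TATAAA (the TATA box), CTTTGA (a core of TCF/LEF sites, where Wnt signalling acts), ACGTCA (a core of the cAMP response element) and an NF-kappaB-like pattern (GGG and TCC with any 4 bases between them).
Ptgs2 (chr1:150099781-150100080, plus strand): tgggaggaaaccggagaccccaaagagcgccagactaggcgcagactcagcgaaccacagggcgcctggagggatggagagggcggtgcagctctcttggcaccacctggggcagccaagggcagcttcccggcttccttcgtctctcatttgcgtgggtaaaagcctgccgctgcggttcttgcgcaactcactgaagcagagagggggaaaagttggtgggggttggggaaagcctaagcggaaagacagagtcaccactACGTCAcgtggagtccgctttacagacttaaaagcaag
Ptges (chr2:30903248-30903547, minus strand): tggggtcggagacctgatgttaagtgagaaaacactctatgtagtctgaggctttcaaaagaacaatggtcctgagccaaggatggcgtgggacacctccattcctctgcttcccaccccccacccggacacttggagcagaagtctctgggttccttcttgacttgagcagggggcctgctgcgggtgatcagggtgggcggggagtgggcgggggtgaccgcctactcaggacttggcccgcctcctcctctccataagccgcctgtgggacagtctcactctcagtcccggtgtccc
Hpgd (chr8:56294302-56294601, plus strand): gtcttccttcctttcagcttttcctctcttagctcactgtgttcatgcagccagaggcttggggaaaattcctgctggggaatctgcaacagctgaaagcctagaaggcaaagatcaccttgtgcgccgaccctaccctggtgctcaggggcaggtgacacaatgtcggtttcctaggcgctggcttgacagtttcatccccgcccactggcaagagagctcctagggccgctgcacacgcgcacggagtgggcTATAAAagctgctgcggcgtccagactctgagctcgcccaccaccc

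The Ptgs2 window holds ACGTCA at position 263 of the window, counted from 1 at its 5′ end, a motif found in 7.51% of the 32851 windows of this length. The Hpgd window holds TATAAA at position 255, a motif found in 13.6% of windows. Both matches lie after the annotated start, at offsets of 12 bases for ACGTCA in Ptgs2 and 4 bases for TATAAA in Hpgd. The Ptges window holds none of the 4 motifs, and neither CTTTGA, found in 16% of all windows, nor the NF-kappaB-like pattern, found in 19.2%, is in any of the 3. The windows held 16 CpG dinucleotides for Ptgs2, 10 for Ptges and 12 for Hpgd, against a median of 7 over all windows. These matches describe the letters of the windows. Ptgs2 also lies next to Pla2g4a on the RefSeq assembly, with 0 protein-coding genes listed between them, and their values are set side by side below.

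Colonies grown with Wnt3A had higher values for the inducible cyclooxygenase Ptgs2 (4.01-fold) and the prostaglandin E synthase Ptges (1.89-fold), and a lower signal for the inactivating dehydrogenase Hpgd on 1 of its 2 probe sets. The EP receptor genes Ptger2 and Ptger4 were slightly lower. Pla2g4a, Ptges2 and Ptger1 overlapped between groups. Below, a gene is called separated where neither Wnt3A array lies within the controls' range and both lie on the same side of it. With an array left out, separation is easier to reach. Such counts therefore cannot be set against the shares of all genes, which use all 4 arrays. By gene, 2 of the 8 members were separated and higher, against 17.1% of all genes, and 3 were separated and lower, against 18.3% of all genes. By probe set, 5 of 14 were separated and higher, against 17.4% of all probe sets, and 4 were separated and lower, against 16.3%. Separation with a difference of at least 1 log2 unit was seen for Ptgs2 among the higher members, against 1.08% of all genes, and for Hpgd among the lower ones, against 0.804%. The median difference over the 8 members was -0.16, against -0.002 over all genes. The members were chosen from this contrast, and nothing is read from these shares.

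**Figure D1:**
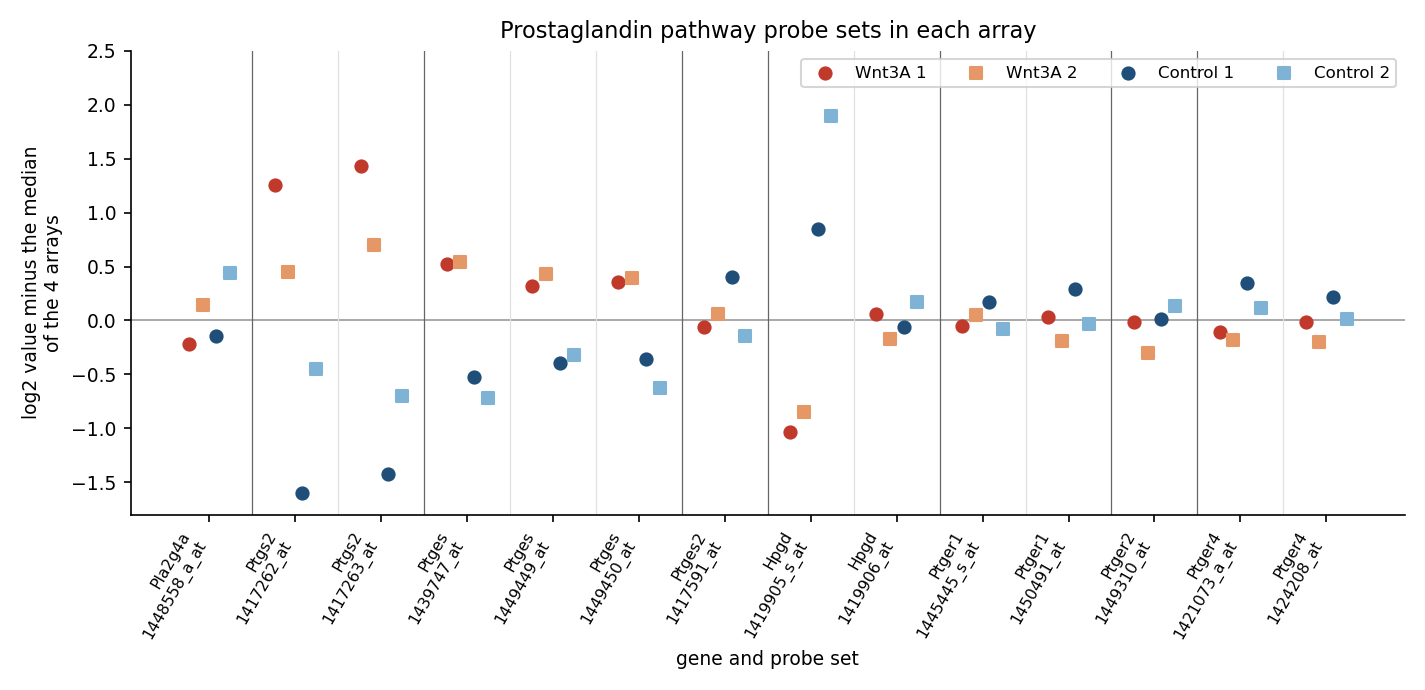
Each point is the log2 value of a member probe set in an array after subtraction of the median of the 4 arrays, with Wnt3A arrays in red and orange and control arrays in blue. The Ptgs2 and Ptges probe sets lie above 0 in both Wnt3A arrays and below 0 in both controls, Hpgd probe set 1419905_s_at lies the other way round, and no value of the other probe sets lies further from 0 than the 0.44 of Pla2g4a in Control 2.

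Pla2g4a, the cytosolic phospholipase A2 that supplies arachidonic acid, had values of -0.22 and 0.15 in Wnt3A 1 and Wnt3A 2, against -0.15 and 0.44 in Control 1 and Control 2. The groups overlapped, and the difference was -0.19 ± 0.26 (SE, n = 2 arrays a group). With an array left out it lay between -0.48 and 0.11, so its sign depended on the array. For Ptgs2, probe set 1417263_at read 1.43 and 0.70 in Wnt3A 1 and Wnt3A 2, against -1.42 and -0.70 in Control 1 and Control 2. The other Ptgs2 probe set, 1417262_at, read 1.25 and 0.45 with Wnt3A, against -1.60 and -0.45 in the controls. Both probe sets gave the same order of arrays, with Wnt3A 1 highest and Control 1 lowest. Their differences were 2.13 ± 0.37 and 1.88 ± 0.49, and the gene difference was 2.00 ± 0.42, a 4.01-fold higher value with Wnt3A. The gap between the nearest arrays of the groups was 1.16, wider than the range of 0.76 within the Wnt3A group and of 0.93 within the control group. Ptgs2 ranked 34th from the top of 16922 genes by difference. The neighbouring pair Ptgs2 and Pla2g4a thus had differences of 2.00 and -0.19 in the same arrays.

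Of the prostaglandin E synthases, Ptges, the inducible microsomal enzyme that works with cyclooxygenase 2, was higher with Wnt3A on all 3 of its probe sets. Probe set 1439747_at read 0.52 and 0.54 in Wnt3A 1 and Wnt3A 2, against -0.52 and -0.72 in Control 1 and Control 2. Probe set 1449450_at read 0.36 and 0.39 with Wnt3A, against -0.36 and -0.63 in the controls. Probe set 1449449_at read 0.32 and 0.43 with Wnt3A, against -0.39 and -0.32 in the controls. No array of a group overlapped the other group on any of them. Replicates were close: for the gene value the Wnt3A arrays lay 0.06 apart and the controls 0.13 apart, while the gap between groups was 0.82. The probe set differences were 1.15 ± 0.14, 0.87 ± 0.15 and 0.73 ± 0.12, and the gene difference was 0.92 ± 0.13, a 1.89-fold higher value. Ptges2, which encodes another membrane-associated enzyme of this activity, had -0.06 and 0.06 in the Wnt3A arrays, against 0.40 and -0.14 in the controls. These overlapped, and its difference of -0.13 ± 0.22 became 0.14 without Control 1.

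Hpgd encodes the NAD-dependent dehydrogenase that takes the first step in prostaglandin inactivation, and its probe sets disagreed. Probe set 1419905_s_at read -1.03 and -0.85 in Wnt3A 1 and Wnt3A 2, against 0.85 and 1.89 in Control 1 and Control 2. It was lower in both Wnt3A arrays by a difference of -2.31 ± 0.38, a 4.95-fold higher value in the controls, and ranked 16th from the bottom of 45037 probe sets. Probe set 1419906_at read 0.06 and -0.17 with Wnt3A, against -0.06 and 0.17 in the controls, with a difference of -0.11 ± 0.16. Its groups overlapped and its sign changed when Wnt3A 2 or Control 2 was left out (0.01 in both cases). Both probe sets lay in the level band log2 4 to 8, so the gene value averaged them and gave -1.21 ± 0.24. The suffix of the first probe set marks probes that can match more than a single transcript, and which reading reflects the main Hpgd transcript was not tested.

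Differences of the EP receptor genes were small. Ptger4, which encodes the EP4 receptor that couples to cAMP, was lower with Wnt3A on both probe sets. Probe set 1421073_a_at read -0.11 and -0.18 in Wnt3A 1 and Wnt3A 2, against 0.34 and 0.11 in Control 1 and Control 2. Probe set 1424208_at read -0.02 and -0.20 with Wnt3A, against 0.22 and 0.02 in the controls, where the nearest arrays of the groups were 0.03 apart. The gene difference was -0.30 ± 0.15, and -0.19 without Control 1. Ptger2, which encodes the EP2 receptor, also coupled to cAMP, read -0.01 and -0.30 with Wnt3A, against 0.01 and 0.13 in the controls. Its groups were 0.02 apart, and its difference of -0.23 ± 0.16 was -0.08 without Wnt3A 2. For Ptger1, which encodes the calcium-coupled EP1 receptor, the groups overlapped on both probe sets and the gene difference was -0.13 ± 0.16, and 0.02 without Control 1. The 3 receptor genes therefore had differences between -0.30 and -0.13, at most 2.00 standard errors from 0.

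**Figure D2:**
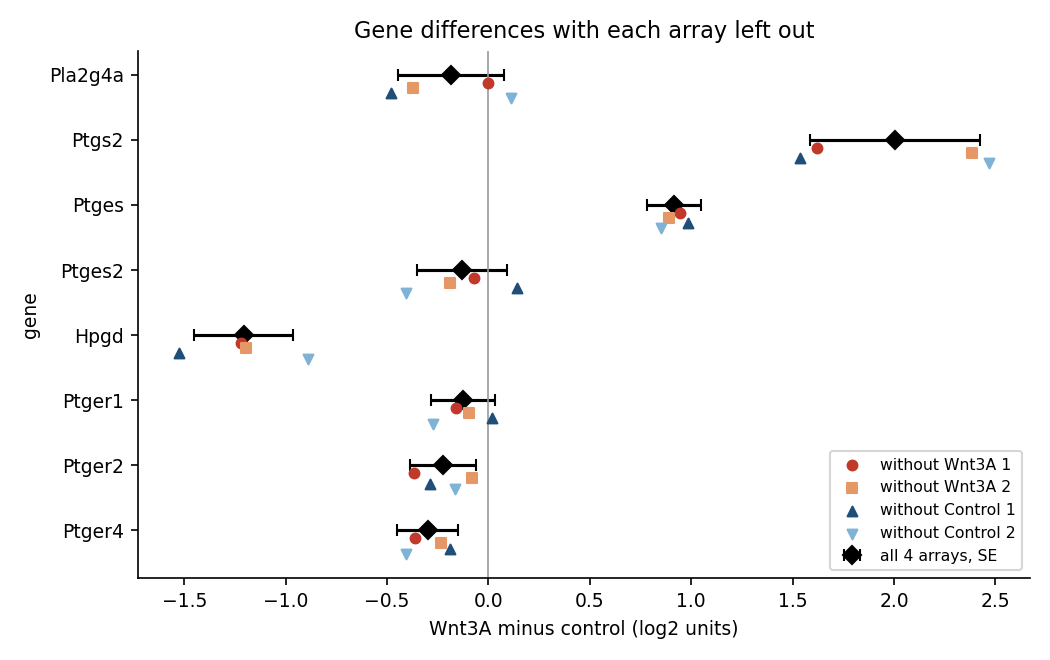
Black diamonds give the difference of each of the 8 genes, Wnt3A minus control in log2 units, with the SE of limma's fit as bars, and coloured marks give it with an array left out. Ptgs2 stays between 1.54 and 2.47, Ptges between 0.85 and 0.98 and Hpgd between -1.53 and -0.89, while Pla2g4a, Ptges2 and Ptger1 cross 0.

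The 5 genes whose 4 centred values lay nearest to those of Ptgs2, by Euclidean distance over the 4 arrays, were Rrad (0.52), Plaur (0.54), Il24 (0.61), Dynap (0.62) and Pdk4 (0.64). With 4 arrays this likeness rests on few points. Plaur, the urokinase receptor gene, read 0.97 and 0.53 in the Wnt3A arrays, against -1.13 and -0.53 in the controls. Il24, a cytokine gene, read 1.54 and 0.86 with Wnt3A, against -1.09 and -0.86 in the controls. The choice by distance fixes that their arrays run in an order like that of Ptgs2.

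Genes known to act upstream of Ptgs2 comprised cytokines, EGF family ligands, NF-kappaB and AP-1 genes and regulators of its mRNA. Of 25 measured, 9 were separated and higher and 2 separated and lower, against 17.1% and 18.3% of all genes. The median difference was 0.13, against -0.002 over all genes, and 0.23 without Control 2. Without Control 1, where fewer arrays make separation easier to reach, 16 were separated and higher and 6 separated and lower. None passed the adjusted threshold in limma, and 4 had an unadjusted p under 0.05, all higher. This list was chosen with earlier results of these data known, so nothing is read from these counts. Il1a, the cytokine interleukin 1 alpha, read 1.43 and 0.77 in Wnt3A 1 and Wnt3A 2, against -0.77 and -1.02 in Control 1 and Control 2, a difference of 1.99 ± 0.27. The EGF receptor ligand genes Ereg (1.06 ± 0.21) and Hbegf (0.98 ± 0.32, and 0.60 without Wnt3A 2) and the AP-1 gene Fosl1 (0.77 ± 0.15) were also separated. Il1b, the other main interleukin 1 gene, overlapped between groups (0.06 ± 0.15), as did the tumour necrosis factor gene Tnf, which read 1.39 and -0.31 with Wnt3A, against 0.31 and -0.45 in the controls. Zfp36, whose product destabilises inflammatory mRNAs, differed by -0.42 ± 0.24, and by -0.11 without Control 2.

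Synthases of other prostanoids formed a mixed group. Of 9 measured, 4 were separated and higher and 1 separated and lower, against 17.1% and 18.3% of all genes. The median difference was 0.25, and it was 0.03 without Wnt3A 2 and 0.09 without Control 1. Akr1c18, a progesterone-reducing enzyme also listed as a prostaglandin F synthase, read 0.21 and 2.52 in Wnt3A 1 and Wnt3A 2, against -0.21 and -0.36 in the controls. Its difference of 1.65 ± 0.78 was 0.50 without Wnt3A 2 and 2.81 without Wnt3A 1. Hpgds, the haematopoietic prostaglandin D synthase gene, had a similar imbalance, at 0.07 and 0.92 with Wnt3A, against -0.20 and -0.07 in the controls, and its difference of 0.63 ± 0.31 was 0.20 without Wnt3A 2. Ptgds, the lipocalin-type prostaglandin D synthase gene, differed by -0.35 ± 0.15. The prostacyclin synthase gene Ptgis (0.04 ± 0.14) and the thromboxane synthase gene Tbxas1 (-0.04 ± 0.13) overlapped between groups.

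Genes listed as prostaglandin carriers, inactivating enzymes or related reductases were mixed. Of 7 measured, 3 were separated and higher and 2 separated and lower, against 17.1% and 18.3% of all genes. The median difference was 0.15, and 0.09 without Control 2. The 2 genes separated and lower were the reductase genes Cbr4 (-0.39 ± 0.13) and Zadh2 (-0.31 ± 0.15, and -0.20 without Wnt3A 1). Cbr4 is a carbonyl reductase gene without an established part in prostaglandin inactivation. Slco2a1, the transporter that takes prostaglandins into cells before Hpgd acts, read 0.60 and 0.08 with Wnt3A, against -0.48 and -0.08 in the controls. Its difference of 0.62 ± 0.25 was 0.35 without Wnt3A 1, and its 4 probe sets ranged from 0.02 to 0.77. Ptgr1, a reductase of the later inactivation steps, differed by 0.46 ± 0.15. The export pump gene Abcc4 had -0.02 in Wnt3A 1 and 0.99 in Wnt3A 2, against -0.71 and 0.02 in the controls, so its groups overlapped.

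The list of remaining prostanoid receptors also holds Ptgfrn, which encodes a receptor-associated regulator and not a receptor. Its 7 genes had differences between -0.14 and 0.31, with 2 separated and higher and 1 separated and lower. Ptgfrn (0.17 ± 0.14) was 1 of the 2 higher. The thromboxane receptor gene Tbxa2r (0.31 ± 0.15) was furthest from 0. Genes of the cAMP pathway and its CREB targets, which EP2 and EP4 engage, had a median difference of -0.04 over 25 measured. Of these, 3 were separated and higher and 8 separated and lower. Over all genes, 17.1% were separated and higher and 18.3% separated and lower. The median of the cAMP and CREB list lay between -0.20 and -0.09 with an array left out. Ppargc1a, a coactivator gene induced by cAMP, differed by -0.99 ± 0.27 (-0.64 without Control 2) and Gem, a small GTPase gene, by -0.92 ± 0.16. Nr4a2, a nuclear receptor gene, differed by 0.54 ± 0.22 (0.28 without Control 2). The 5 probe sets of Ppargc1a ranged from -1.02 to -0.28, and the 6 of Nr4a2 from -0.24 to 0.75.

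Other phospholipases and genes of arachidonate release had a median difference of 0.05 over 22 measured, with 6 separated and higher and 1 separated and lower. The median and counts changed with an array left out, where separation is easier to reach for any list. Without Wnt3A 1 the median was -0.05, with 8 higher and 9 lower, and without Wnt3A 2 it was 0.10, with 14 higher and 4 lower. These counts have no share of all genes beside them. Pla2g4e, a relative of Pla2g4a, read 0.24 and 1.32 in Wnt3A 1 and Wnt3A 2, against -0.24 and -0.28 in the controls. Its difference of 1.04 ± 0.38 was 0.50 without Wnt3A 2. Pla2g4f, another relative, differed by 0.61 ± 0.23 (0.33 without Wnt3A 2), and Pla2g7, which encodes a secreted phospholipase that degrades platelet-activating factor, by -0.86 ± 0.27 (-0.50 without Wnt3A 2). Across 10 lists of pathway genes, 36 of 135 measured genes were separated and higher and 20 separated and lower, beside 17.1% and 18.3% of all genes. None of the 135 passed limma's adjusted threshold, and 15 had an unadjusted p under 0.05, 10 higher and 5 lower, beside 1300 of all 16922 genes. The lists were chosen with earlier results of these data known, so nothing is read from these counts and shares.

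**Figure D3:**
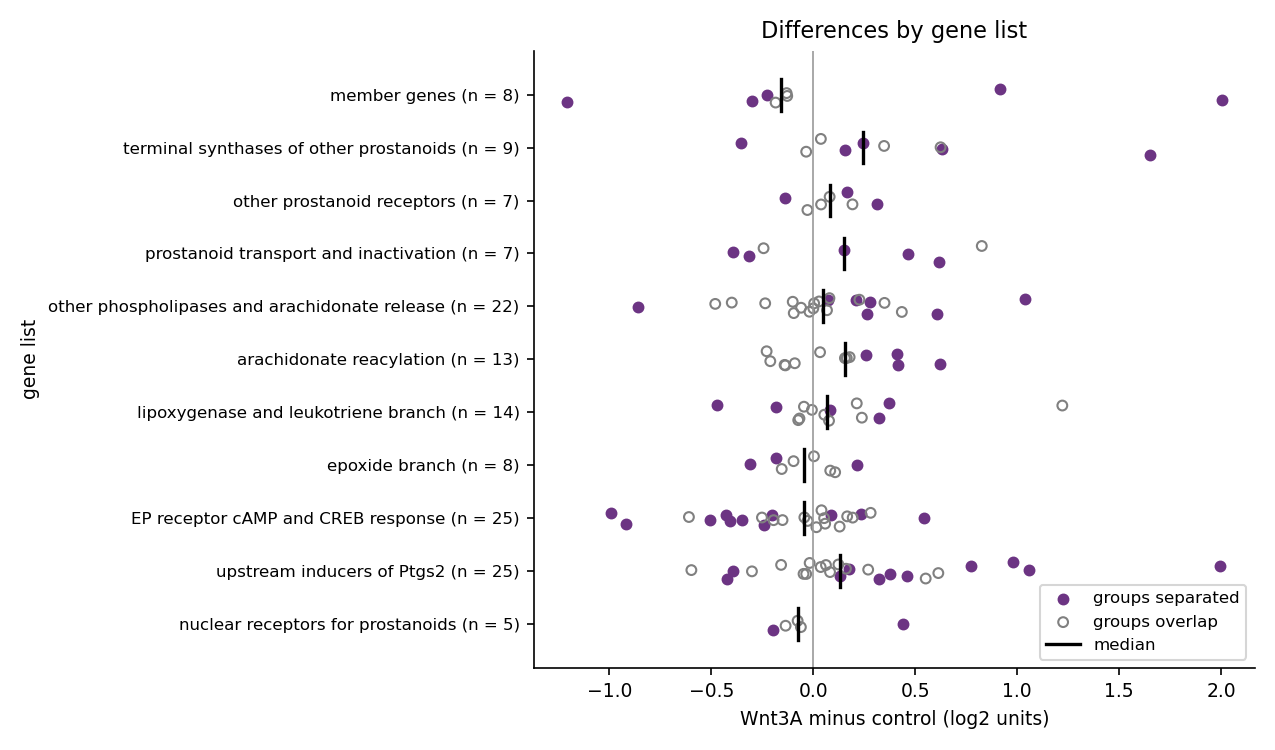
Each point is the difference of a gene, Wnt3A minus control in log2 units, in the member genes and in 10 lists of related genes, filled where the groups do not overlap, with the list median as a black bar. List medians lie between -0.16 (the members) and 0.25 (synthases of other prostanoids), while Ptgs2 and Il1a reach 2.00 and 1.99.

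Markers of several cell types were also separated between the groups, and their values are given beside the members. Over all genes, 17.1% were separated and higher and 18.3% separated and lower. Of the 12 basal markers, 2 were separated and higher and 1 separated and lower, with a median difference of 0.26. Oxtr, the oxytocin receptor gene of contractile basal cells, read -1.26 and -1.32 in Wnt3A 1 and Wnt3A 2, against 1.26 and 1.37 in Control 1 and Control 2, a difference of -2.60 ± 0.13. Its 2 probe sets disagreed, with differences of -2.60 and -0.17. The integrin genes Itgb1 (0.67 ± 0.26, and 0.34 without Control 1) and Itgb4 (0.64 ± 0.27, and 0.33 without Wnt3A 1) were the 2 higher. The 6 probe sets of Itgb1 ranged from 0.05 to 0.86. Suprabasal keratinocyte markers were higher in both Wnt3A arrays for 11 of 15 genes and lower for 0, with medians of 0.21 and 1.19 in Wnt3A 1 and Wnt3A 2, against -0.57 and -0.33 in Control 1 and Control 2. Their median difference of 1.25 was 0.60 without Wnt3A 2 and 1.88 without Wnt3A 1. The order within the Wnt3A group was the reverse for Ptgs2, at 1.34 in Wnt3A 1 and 0.58 in Wnt3A 2, while Ptges differed little there, at 0.40 and 0.45. Within the controls Ptgs2 had the order of the marker medians, at -1.51 in Control 1 and -0.58 in Control 2. Ptges had the reverse order there, at -0.42 and -0.56. Most suprabasal markers read higher in Wnt3A 2 than in Wnt3A 1. Those with the largest differences were Krt1 (0.94 in Wnt3A 1 and 6.28 in Wnt3A 2), Krt10 (0.57 and 4.14), Sprr1b (0.74 and 2.06) and Sprr1a (0.55 and 2.31). Only Krt6a and Tgm3 had the other order: Krt6a read 0.42 in Wnt3A 1 and 0.30 in Wnt3A 2, and Tgm3 0.085 and -0.26.

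Luminal markers were lower in both Wnt3A arrays for 4 of 10 genes and higher for 0, with medians of 0.00 and -0.49 in Wnt3A 1 and Wnt3A 2, against 0.24 and 0.07 in Control 1 and Control 2. Their median difference of -0.52 was -0.20 without Wnt3A 2 and -1.12 without Wnt3A 1. Foxa1, a transcription factor gene of hormone-sensing luminal cells, read -1.85 and -0.68 with Wnt3A, against 0.68 and 1.47 in the controls, a difference of -2.34 ± 0.49. Hpgd probe set 1419905_s_at was likewise lowest in Wnt3A 1 and highest in Control 2. So was the progesterone receptor gene Pgr, at -0.47 and -0.31 with Wnt3A, against 0.31 and 1.405 in the controls. Its difference was -1.25 ± 0.39, and its 3 probe sets ranged from -1.25 to -0.20. The oestrogen receptor gene Esr1 had the same lowest and highest arrays, but its groups overlapped. The luminal medians were instead lowest in Wnt3A 2 and highest in Control 1. Kit followed the medians, at -0.06 and -0.94 with Wnt3A, against 0.41 and 0.08 in the controls, but its 2 probe sets differed by -1.41 and -0.08. Krt19 was lowest in Wnt3A 2 and highest in Control 2. Macrophage and lymphocyte markers had a median difference of 0.03 over 8 measured, with 1 higher and 1 lower, and of -0.01 without Wnt3A 1. Mast cell markers had a median of -0.20 over 6, with 0 higher and 3 lower, one of them Kit, which is also counted as luminal. That median was -0.08 without Wnt3A 2, and -0.07 with 2 higher without Control 1. Fibroblast markers had a median of 0.15 over 7, with 2 higher and 1 lower, and of 0.00 without Control 1. The lower gene was Pdgfra, a growth factor receptor gene, at -1.76 ± 0.47 (-1.14 without Control 1), with 3 probe sets from -1.76 to 0.02. Endothelial markers had a median of -0.05 over 7, with 2 higher and 1 lower, and of 0.07 without Control 1. The counts of these marker lists stand beside 17.1% of all genes separated and higher and 18.3% separated and lower. The part of these cell types in the values of Ptgs2, Ptges and Hpgd was not tested.

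**Figure D4:**
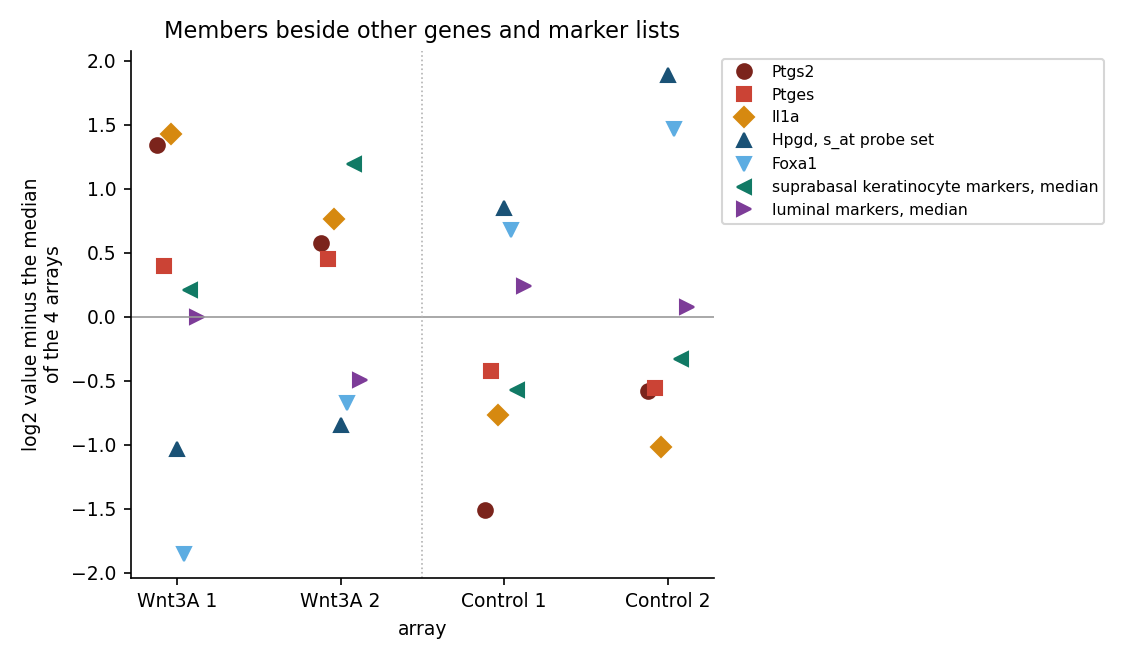
Points give log2 values after subtraction of the median of the 4 arrays for Ptgs2, Ptges, Il1a, Hpgd probe set 1419905_s_at and Foxa1, and list medians for suprabasal keratinocyte and luminal markers, in each array. Ptgs2 and Il1a are highest in Wnt3A 1, the suprabasal markers in Wnt3A 2, and Hpgd and Foxa1 in Control 2.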

How the data were processed

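Colony RNA was measured on 4 Affymetrix Mouse Genome arrays. RMA, named without a version in the submitters' processing notes, gave the deposited log2 values. The median of each of the 45101 rows over the 4 arrays was 0, so the deposited log2 values are differences from it, and how they were centred is not stated. Level bands were read from the storage grid of the numbers. On simulated data this reading placed some of the probe sets below log2 8 too high and none too low.

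Array control probe sets were left out. The platform annotation gave 1 symbol for 34945 of the 45037 remaining probe sets, several for 932 and none for 9160. Gene values were means over a gene's probe sets in its highest band. Genes below log2 4 were left out, which left 16922, all 8 measured members included. The two-sided test of limma 3.58.1 in R 4.3.3 (lmFit, eBayes, Benjamini-Hochberg, threshold 0.05, no covariate, 2 residual degrees of freedom) was fitted to all probe sets and to all genes. An exact permutation test of 2 against 2 arrays cannot go below p = 0.333. The fit was tested on simulated data with known differences. The alternatives tried are given with their effect in the closing section.

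The members and lists were chosen with earlier results of these data known. The text names all members, genes of the 3 closest prostanoid lists, up to 4 separated genes with the largest differences in each other list, and the 5 genes nearest to Ptgs2. Il1b, Tnf, Zfp36, Krt5, Krt14, Trp63, Krt6a, Tgm3 and Esr1 fall outside that rule and were chosen after their values were seen. Sequences are from RefSeq. Figures used matplotlib 3.10.9 under Python 3.11.15. The number of arrays limits the precision.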

Additional observations from a re-analysis of the deposited data

How the results depend on the processing

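limma called 0 probe sets and 0 genes under quantile normalization, with columns centred on their medians, with robust eBayes, with the replicate number as a block, with each array left out, at an adjusted p under 0.1, and with the other filters and gene values that were run. Between 2184 and 4882 of up to 45037 probe sets had an unadjusted p under 0.05, the highest count being that of the replicate block. Members separated higher numbered 2 under every alternative except without Control 1, where they numbered 3, and members separated lower numbered 3 with all arrays and 4 to 5 with an array left out. With fewer arrays, separation is easier to reach. The member median of -0.16 lay between -0.218 and -0.087 with an array left out, at -0.20 with the probe set of largest spread, and at -0.16 under quantile normalization and with the mean of all probe sets. The 5 separated members kept their sign in 40 of 40 recomputed values, but most of these could not have changed sign. Separation with all arrays fixes the sign when an array is left out. The block cannot change a difference, and the mean of all probe sets equals the gene value for these genes. Only quantile normalization and column centring could have changed a sign. Leaving out an array cannot move a difference between pairs by more than the pooled SD, so that comparison says little. In this balanced layout the block leaves the differences as they are and changes only their errors. The median SE over probe sets was 0.117 with the block, against 0.158 in the main fit, whose errors are given here. Deviations of same-numbered arrays correlated over probe sets (r = 0.53), but with 2 pairs this does not establish pairing, and the labels give no shared source. Of 425 recomputed counts and medians of the other lists, 125 moved by over 1.5 times (counts) or 1 SD (medians). What limits all values is 2 arrays a group, the missing levels and, for Hpgd, probe sets that disagree.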

Other observations

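Another list held acyl-CoA synthetase and acyltransferase genes that return fatty acids, arachidonic acid among them, to membranes. It also held Fads1, Fads2 and Elovl5, whose products make arachidonic acid and do not return it. Of 13 measured, 4 were separated and higher and 0 separated and lower, against 17.1% and 18.3% of all genes. The median difference was 0.16. That median was 0.03 without Wnt3A 1 and -0.05 without Control 2. The number separated and lower was 1 under quantile normalization and with centred columns, 2 with the mean of all probe sets and 2 to 3 with an array left out. Acsl5, an acyl-CoA synthetase gene, read 0.39 and 0.20 in Wnt3A 1 and Wnt3A 2, against -0.45 and -0.20 in Control 1 and Control 2, a difference of 0.62 ± 0.16. The lysophospholipid acyltransferase genes Lpcat1 (0.41 ± 0.18, and 0.25 without Control 1), Lpcat4 (0.41 ± 0.14) and Lpcat3 (0.26 ± 0.13) were separated too, but the 5 probe sets of Lpcat1 ranged from -0.13 to 0.91.

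Of 14 genes of the lipoxygenase and leukotriene branch, 3 were separated and higher and 2 separated and lower, against 17.1% and 18.3% of all genes. Their median difference was 0.07. That median was 0.13 without Control 1 and -0.03 without Control 2. Alox5ap, the activating protein gene of leukotriene synthesis, differed by 0.37 ± 0.17 (0.21 without Wnt3A 1), and Ltc4s, a leukotriene synthase gene, by -0.47 ± 0.22 (-0.20 without Control 1). A list of epoxide branch genes that also held Cyp4 hydroxylase genes had a median of -0.05 over 8, with 1 higher and 2 lower. Without Wnt3A 2, where fewer arrays make separation easier to reach, the median was 0.08, with 5 higher and 2 lower. The higher gene, Cyp4a12a, and 1 of the 2 lower, Cyp4f13, were Cyp4 genes. Of 5 nuclear receptors that bind prostanoids or pair with those that do, 1 was separated and higher and 1 separated and lower. Their median was -0.08, and between -0.28 and 0.33 with an array left out. Ppara, a receptor gene for fatty acids, differed by -0.20 ± 0.14 (-0.12 without Control 2). Ppard, a related gene, was higher in both Wnt3A arrays, at 0.16 and 0.22, against -0.19 and -0.32 in the controls (0.44 ± 0.13), and its 2 probe sets differed by 0.11 and 0.77. None of these genes passed limma's adjusted threshold.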
